A study of Homo sapiens with 4 samples.

Results

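The machinery that decides whether a cell leaves G1 was examined in HK-2 cells, a human renal proximal tubule line that grows without limit. Cells with and without induction of PRCC-TFE3, the fusion transcription factor of TFE3-rearranged renal cell carcinoma, were compared. The genes were chosen by name and number 10 of the 34080 genes to which a deposited transcript could be assigned. They are the D-type cyclins CCND1, CCND2 and CCND3, the kinases CDK4 and CDK6, the CIP/KIP inhibitors CDKN1A (p21), CDKN1B (p27) and CDKN1C (p57), and the INK4 inhibitors CDKN2A and CDKN2B. All cells carried a Tet-On 3G system for HA-tagged PRCC-TFE3 and, per the study's methods, were kept under blasticidin and puromycin in tetracycline-free serum. Doxy(+) cells received 0.2 microg/ml doxycycline over 24 h, Doxy(-) cells received none, and the labels give 24 h for both groups. Polyadenylated RNA of 2 libraries per group was sequenced. The sources used here do not say whether the line was 1 clone or whether the libraries came from separate cultures, so p-values measure only the spread between these libraries. No HK-2 culture without the transgene was analysed here, so effects of doxycycline and of PRCC-TFE3 cannot be told apart.

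D-type cyclins are made in response to growth signals and bind CDK4 or CDK6. The resulting kinases phosphorylate the retinoblastoma protein RB, which then releases E2F factors that transcribe S-phase genes. INK4 proteins bind CDK4 and CDK6 and keep the cyclins away. CIP/KIP proteins bind cyclin-kinase complexes and block CDK2, and they also help to assemble cyclin D with CDK4. HK-2 cells were immortalised with the papillomavirus oncogenes E6 and E7, whose products target p53 and RB, so RB control in this line differs from that of normal tubule cells.

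The deposited estimated reads assigned to genes came to between 12654200 and 15012700 per library. TFE3, which includes reads of the transgene, had 66.9 and 69.0 CPM (counts per 1000000 after scaling between libraries) without doxycycline and 367 and 322 CPM with it, so both induced libraries were above both controls, as labelled. PRCC had 50.2 and 47.2 CPM without doxycycline and 47.7 and 60.1 CPM with it, and these ranges overlapped. Of 12 markers of the proximal tubule lineage, 3 (PAX8, GGT1 and MME) had at least 10 estimated reads in every library. SLC22A6 was at 0 throughout, and PAX2, ANPEP, LRP2 and AQP1 had fewer than 12 reads over all libraries. The summed level of this list was 496 to 524 TPM (transcripts per 1000000, a level per length) in Doxy(-) and 573 to 586 TPM in Doxy(+). The epithelial list summed to 1541 to 1568 TPM in Doxy(-) and 1275 to 1284 TPM in Doxy(+), with 6 of 7 markers detected by the same rule. The marker that missed it was CDH1, with 6.14 to 10.5 estimated reads per library. Among 7 fibroblast markers 3 were detected (LUM, COL1A1 and DCN, summed at 220 to 236 and 256 to 257 TPM) and COL3A1 was at 0. Among 7 leukocyte markers 1 was, the lysosomal gene CD68, while CD3E was at 0, and the list summed to 175 to 190 and 239 to 240 TPM. None of 6 endothelial markers was detected by this rule, and CDH5 and KDR were at 0, with a summed level of 1.25 to 1.63 TPM in Doxy(-) and 1.09 to 1.12 TPM in Doxy(+). The part of these shifts in the results that follow was not tested.

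Of the 10 genes, all 10 passed the low-count filter. At an edgeR adjusted p under 0.05, 2 were higher in Doxy(+) (CDKN1A and CDK4) and 4 were lower (CCND1, CDKN2B, CDK6 and CCND2). Over all 13569 genes tested, 9.76% were higher and 9.53% lower at this limit, 19.3% in either direction. None of the 10 also passed the study's limit of 1 on the log2 fold change, which 1.98% of tested genes did together with the adjusted p. The same 10 genes had 3 higher and 5 lower at an unadjusted p under 0.05, where 2282 higher and 2246 lower were counted over all 13569 genes. CPM values of the groups did not overlap for any of the 10, against 61.1% of all genes tested. The plot of single libraries shows this separation and how tight the pairs were.

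**Figure D1:**
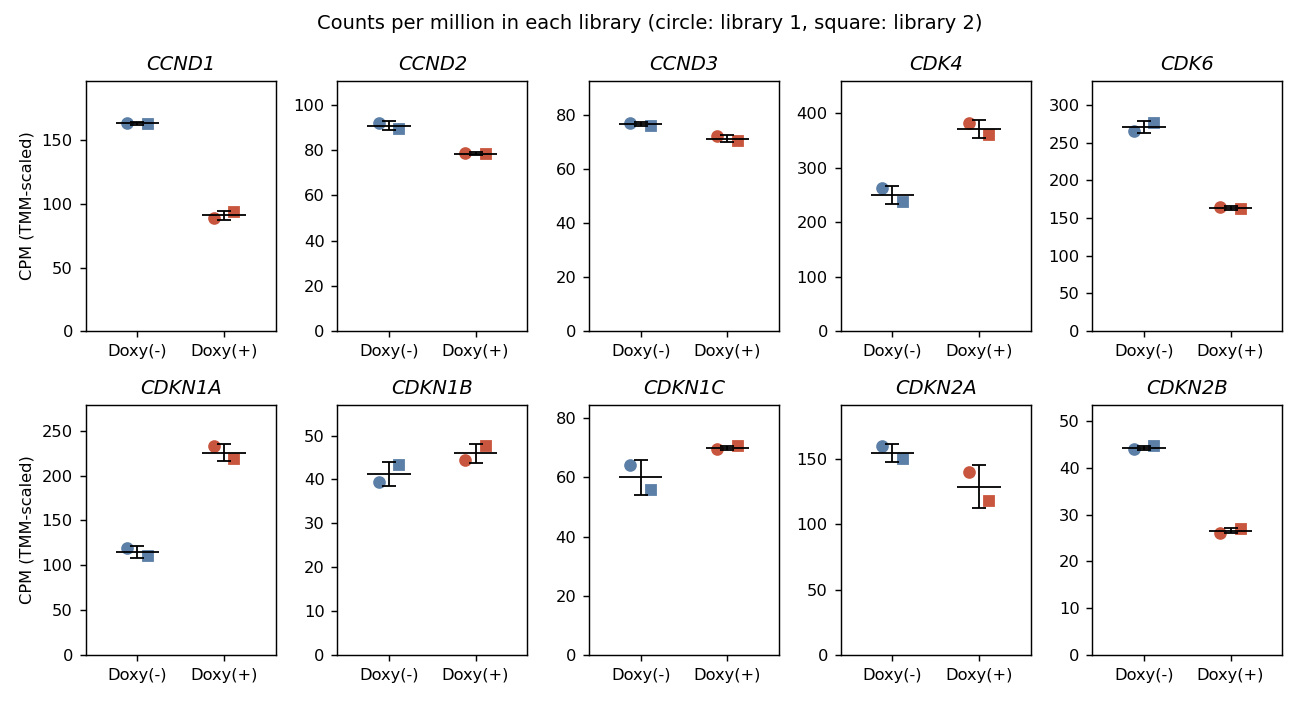
Each panel gives the CPM of 1 gene (vertical axis, from 0) in the Doxy(-) libraries (blue) and the Doxy(+) libraries (red), with a circle for library 1 and a square for library 2, a horizontal line for the group mean and bars of 1 SD. CDKN1A and CDK4 sit higher in Doxy(+), while CCND1, CDK6 and CDKN2B sit far lower.

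Promoter sequences are given for the called genes with an entry in the RefSeq promoter table (build GRCh38.p14), where 7 of the 10 genes were found, since genes that rose and genes that fell can then be set side by side. CCND1, CCND2 and CDKN1C had none. TFE3 and MYC belong to the bHLH leucine zipper class of factors that bind the E-box CACGTG, and AP-1 binds TGANTCA. Windows of 300 bases (250 before the annotated start and 50 after it) were searched on both strands. An E-box lay in 2 of the 11 windows of the 7 genes, those of CDK4 and of 1 start of CDK6, against 7.26% of all 35116 windows in the table. The E-box flanked by T and A, which overlaps the shorter motif, was in 0 of the 11 windows and in 0.98% of all windows. The AP-1 element was in 0 of the 11 windows and in 7.71% of all windows. In CDK4 there were 3 E-boxes, which began 216, 196 and 101 bases before the start (positions -216, -196 and -101). That of CDK6 began at position 31 after the start at 92836573, the other of its annotated starts. A match is a description of the letters and does not show binding. Each line gives the 250 bases before the start, 5′ to 3′ on the gene's strand, with E-boxes in capitals.
CDK4, chr12:57752311-57752560, minus strand: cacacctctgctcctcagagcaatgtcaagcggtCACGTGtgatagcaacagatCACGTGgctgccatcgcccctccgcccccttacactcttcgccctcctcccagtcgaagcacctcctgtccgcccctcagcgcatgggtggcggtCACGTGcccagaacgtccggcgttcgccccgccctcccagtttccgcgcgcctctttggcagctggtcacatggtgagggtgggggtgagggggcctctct
CDK6, chr7:92833960-92834209, minus strand: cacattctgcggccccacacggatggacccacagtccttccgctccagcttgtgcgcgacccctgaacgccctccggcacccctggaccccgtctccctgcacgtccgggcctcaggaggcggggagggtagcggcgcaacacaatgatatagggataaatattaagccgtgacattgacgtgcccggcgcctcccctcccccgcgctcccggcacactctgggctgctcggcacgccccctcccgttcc
CDKN1A, chr6:36678464-36678713, plus strand: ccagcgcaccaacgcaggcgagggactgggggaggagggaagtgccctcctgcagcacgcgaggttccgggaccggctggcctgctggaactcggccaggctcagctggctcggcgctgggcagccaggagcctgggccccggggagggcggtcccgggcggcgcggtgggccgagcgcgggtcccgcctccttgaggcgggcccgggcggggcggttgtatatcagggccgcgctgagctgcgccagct
CDKN2B, chr9:22009306-22009555, minus strand: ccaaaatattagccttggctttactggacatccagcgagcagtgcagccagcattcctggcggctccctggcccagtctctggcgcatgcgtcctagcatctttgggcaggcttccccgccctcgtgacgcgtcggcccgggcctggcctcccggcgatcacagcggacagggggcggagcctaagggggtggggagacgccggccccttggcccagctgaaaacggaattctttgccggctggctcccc

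CDK4, which rose, is the gene of these 4 with E-boxes before the RefSeq start used here, at 57752310. That start lies within the first exon of the leading CDK4 transcript, which spans 57752175 to 57752447. The E-box at position -101 lies inside this exon, and those at -216 and -196 lie before it. CDK6, which fell, also had an E-box, after its start at 92836573, in a window that is not printed. E-boxes were thus found for a gene that rose and for a gene that fell. The windows of CDKN1A, which rose, and of CDKN2B, which fell, held 0 of the 3 motifs. GC content of the printed windows was 65.6% in CDK4, 67.6% in CDK6, 76.4% in CDKN1A and 66.4% in CDKN2B.

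The D-type cyclins come first in the pathway. CCND1 (ENSG00000110092.4, hg38 chromosome 11, 69641156 to 69654474, plus strand) encodes cyclin D1, the D-type cyclin most closely tied to RAS and ERK signals. Its control libraries gave 164 and 163 CPM, the induced ones 88.6 and 93.6 CPM. Both induced libraries were therefore below both controls, and the gap was many times the spread within a group. On the log2 scale the change was -0.84 (SE 0.0449, edgeR adjusted p 0.000237), and the level fell by 44.2%. Its exons share 497 bases with LTO1 on the other strand, to which 206 to 266 estimated reads per library were assigned, against 1141 to 2390 for CCND1.

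CCND2 (ENSG00000118971.9, chromosome 12, 4269771 to 4305353, plus strand), the cyclin D2 gene, gave 92.0 and 89.2 CPM in control libraries and 78.8 and 78.1 CPM in induced ones. Its exons share 999 bases with ENSG00000285901, a protein-coding gene on the same strand to which no deposited transcript could be assigned here. This smaller decrease passed the test at -0.21 on the log2 scale (SE 0.0477, edgeR adjusted p 0.0307). The call was lost in 7 of 15 alternatives. They include the fits without Doxy(-) 1 (edgeR adjusted p 0.0691), without Doxy(+) 1 (edgeR adjusted p 0.156) and without Doxy(+) 2 (edgeR adjusted p 0.161), and over all alternatives the adjusted p ran from 0.0239 to 0.749. CCND3 (ENSG00000112576.13, chromosome 6, 41934934 to 42050357, minus strand), the cyclin D3 gene, gave 77.2 and 76.1 CPM in control libraries and 72.2 and 70.4 CPM in induced ones. The change of -0.11 on the log2 scale (SE 0.0493, edgeR adjusted p 0.198) missed the limit, and the 95% interval of the difference reached from -0.23 to 0.01. The 95% interval of CCND1, -0.95 to -0.73, overlapped that of neither CCND2 (-0.32 to -0.09) nor CCND3, although a test between genes was not made.

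Next, the kinases moved in opposite directions. CDK4 (ENSG00000135446.17, chromosome 12, 57747727 to 57756013, minus strand) gave 262 and 238 CPM in control libraries and 382 and 360 CPM in induced ones. The lowest induced library was far above the highest control. The increase was 0.57 on the log2 scale (SE 0.0563, edgeR adjusted p 0.00165), or 1.49-fold. CDK4 exons share 1369 bases with TSPAN31 on the other strand. TSPAN31 held between 251 and 313 estimated reads per library, while CDK4 held between 3378 and 4925. TSPAN31 itself changed by 0.17 on the log2 scale (SE 0.096, edgeR adjusted p 0.275). The pseudogene CDK4P1 held at most 1 read in a library.

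CDK6 (ENSG00000105810.10, chromosome 7, 92604921 to 92836573, minus strand) encodes the partner kinase with largely overlapping substrates. Controls gave 265 and 276 CPM and induced libraries 165 and 162 CPM, so that the groups were far apart. The decrease was -0.73 on the log2 scale (SE 0.0381, edgeR adjusted p 0.00023). It had the smallest p of the 10 genes. Among genes averaging 10 CPM or more, the 3 whose log2 CPM profile over the 4 libraries, with each gene centred on its own mean, lay nearest to that of CDK6, by Euclidean distance over 9610 genes, were IQGAP3 (distance 0.0431), PDLIM7 (0.0432) and IFFO2 (0.0439).

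**Figure D2:**
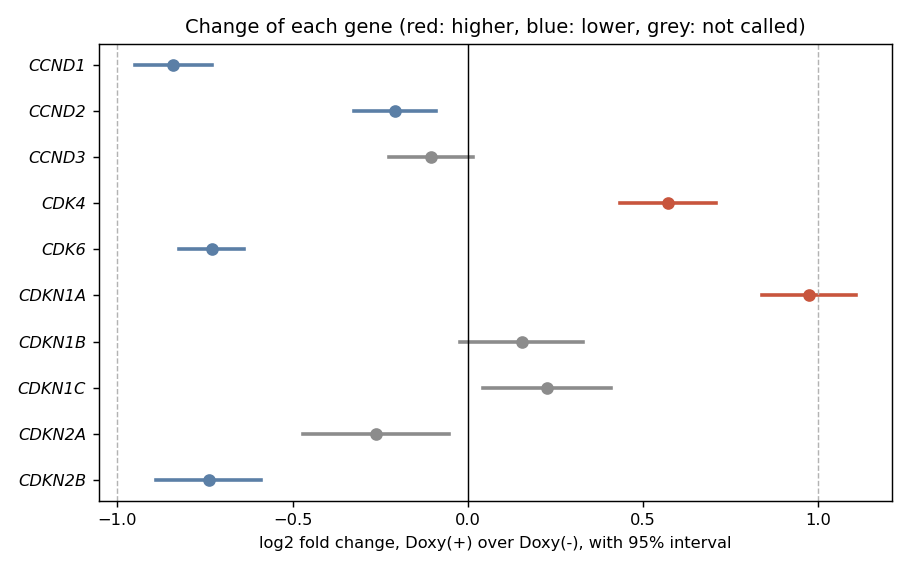
Points give the log2 fold change of each gene, Doxy(+) over Doxy(-), and lines its 95% interval from the edgeR fit, with red for higher, blue for lower and grey for genes that were not called. Dashed lines mark the study's limit of 1 in size, which only the interval of CDKN1A reaches.

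Among the CIP/KIP inhibitors, CDKN1A (ENSG00000124762.14, chromosome 6, 36676460 to 36687337, plus strand) encodes p21, the best known p53 target and a brake on CDK2. Controls gave 120 and 110 CPM and induced libraries 232 and 219 CPM. The groups were far apart, and the increase was 0.97 on the log2 scale (SE 0.0553, edgeR adjusted p 0.000283), or 1.96-fold. This was the largest change among the 10 genes and lay just under the study's limit of 1. It passed that limit without Doxy(-) 1 (1.03) and without Doxy(+) 2 (1.02), and with limma on log2(TPM + 1) (1.01) and log2(TPM + 0.1) (1.02). The genes nearest to CDKN1A in profile were ATF6B (distance 0.042), SP140 (0.0459) and SLC66A1 (0.0722).

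The other CIP/KIP genes did not pass. CDKN1B (ENSG00000111276.12, chromosome 12, 12685498 to 12722369, plus strand), which encodes p27, gave 39.3 and 43.2 CPM in controls and 44.3 and 47.5 CPM after induction. The difference was 0.15 on the log2 scale (SE 0.0722, edgeR adjusted p 0.201), with a 95% interval of -0.02 to 0.33. It was 0.08 without Doxy(-) 1 and 0.10 without Doxy(+) 2. CDKN1C (ENSG00000129757.15, chromosome 11, 2883213 to 2885775, minus strand), which encodes p57 and is imprinted, gave 64.1 and 55.9 CPM in controls, which lay apart, and 69.6 and 70.5 CPM after induction. The difference was 0.23 on the log2 scale (SE 0.0751, edgeR adjusted p 0.0914). Without Doxy(-) 1 it was 0.32 with an edgeR adjusted p of 0.0155, the lowest of a range that reached 0.267.

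The INK4 genes lie side by side on chromosome 9, minus strand. CDKN2B (ENSG00000147883.12, 22002903 to 22009305) encodes p15, an inhibitor that TGF-beta induces in epithelial cells. Controls gave 43.96 and 44.6 CPM and induced libraries 26.2 and 26.9 CPM. The groups were well apart, with a change of -0.74 on the log2 scale (SE 0.0617, edgeR adjusted p 0.000914). Of its TPM, 47.3% to 55.9% across the libraries lay on CDKN2B-203, annotated as a retained-intron transcript. This transcript has 1 exon of 1069 bases, from 22005203 to 22006271. Its share depends on how reads common to several transcripts were split, so it does not measure intron retention. Over protein-coding transcripts alone, an alternative chosen after the data were seen, the change was -0.62 (edgeR adjusted p 0.012).

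CDKN2A (ENSG00000147889.18, 21967752 to 21995301) encodes p16 (INK4a) and, from another first exon and reading frame, p14 (ARF), which acts on p53 through MDM2. Controls gave 159 and 150 CPM and induced libraries 140 and 117 CPM. The Doxy(+) libraries lay further apart than the nearest libraries of the groups. The difference of -0.26 on the log2 scale (SE 0.0856, edgeR adjusted p 0.0854) missed the limit. It passed without Doxy(+) 1 (-0.40, edgeR adjusted p 0.0277), without the low-count filter and with DESeq2, while without Doxy(+) 2 the difference was -0.14. Over all alternatives its adjusted p ranged from 0.0173 to 0.278.

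The reads of CDKN2A were also divided by the annotated start codon of its transcripts. Transcripts with the INK4a start codon (first base 21974827) held 54.2 and 45.1 CPM in controls and 41.9 and 38.9 CPM after induction. Those with the ARF start codon (first base 21994331) held 20.5 and 31.8 CPM in controls and 35.9 and 11.9 CPM after induction, so the libraries of a group differed more than the groups. The largest part, 43.2% to 55.5% of the estimated reads, lay on 5 transcripts that start their coding in the second exon, which both products share. Estimates of single transcripts depend on the way reads common to several transcripts were split, and these classes were not tested.

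**Figure D3:**
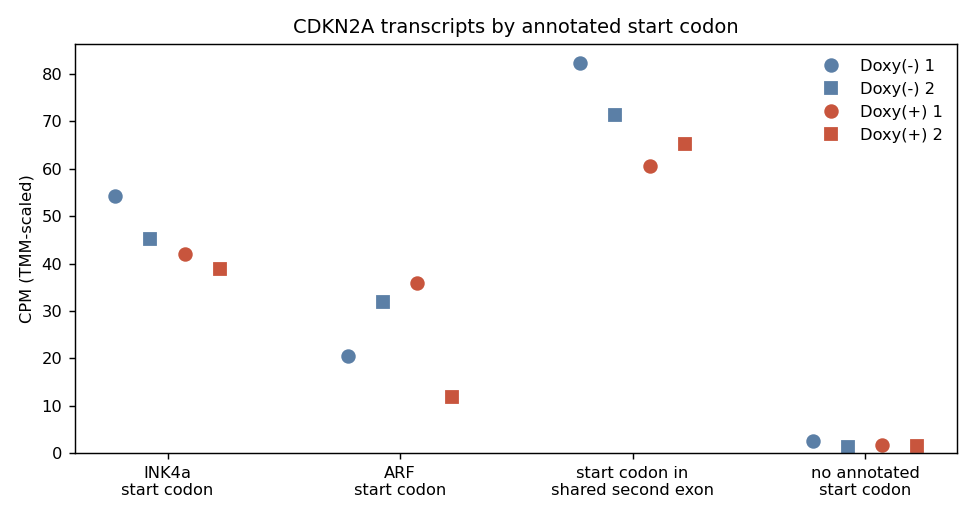
The vertical axis gives the CPM of CDKN2A transcripts grouped by annotated start codon, in Doxy(-) (blue) and Doxy(+) (red), with a circle for library 1 and a square for library 2. The ARF class runs from 11.9 to 35.9 CPM within the Doxy(+) group, while the INK4a class runs from 38.9 to 54.2 CPM over all 4 libraries.

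To compare the genes with one another, levels per length were used. In Doxy(-), CDK4 was highest at 433 ± 26.9 TPM (SD, n = 2), followed by CDKN2A at 329 ± 21.0 TPM. CCND1 (87.2 ± 5.05 TPM), CDKN1A (79.5 ± 5.64 TPM), CDKN1C (70.3 ± 2.46 TPM) and CCND3 (67.4 ± 1.86 TPM) formed the middle. CDK6 (40.3 ± 1.50 TPM), CDKN2B (36.2 ± 2.08 TPM), CDKN1B (29.7 ± 5.30 TPM) and CCND2 (21.7 ± 0.693 TPM) were lowest. Between neighbours in this order, the library values of CDKN1C and CCND3 overlapped. In Doxy(+) CDK4 rose to 660 ± 26.5 TPM, CDKN1A became the third at 161 ± 6.94 TPM and CCND1 the sixth at 50.9 ± 1.90 TPM. There CCND2 (20.5 ± 3.30 TPM) and CDKN2B (19.1 ± 1.14 TPM) overlapped. These levels depend on short transcripts. Transcripts annotated as retained-intron made up 36.4% to 42.4% of the TPM of CCND1 and 47.3% to 55.9% of that of CDKN2B. For CDKN2A, the 678-base transcript CDKN2A-212 held 150 to 200 TPM across the libraries. Over protein-coding transcripts alone CCND1 stood at 52.1 ± 0.262 TPM in Doxy(-), below CCND3 at 63.6 ± 0.497 TPM. CDKN2B, at 16.4 ± 1.58 TPM, was then the lowest of the 10 in Doxy(-).

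The make-up of each family shifted accordingly. CCND1 held 51.0% and 47.9% of the TPM of the D-type cyclins in Doxy(-) and 37.8% and 37.2% in Doxy(+), while CCND3 went from 37.1% and 39.4% to 49.0% and 45.6%. Which cyclin led in Doxy(-) depends on the transcripts counted, since CCND1 held 38.3% and CCND3 46.8% over protein-coding transcripts. CDK4 held 91.6% and 91.3% of the TPM of the kinases in Doxy(-) and 96.5% and 96.1% in Doxy(+). CDKN1A held 46.0% and 42.6% of the CIP/KIP TPM in Doxy(-) and 58.3% and 56.2% in Doxy(+). Summed over each family, D-type cyclins stood at 178 and 175 TPM in Doxy(-) and at 138 and 133 TPM in Doxy(+), and CIP/KIP inhibitors at 181 and 177 TPM against 285 and 279 TPM. Cyclin D mRNA per CDK4 and CDK6 mRNA came to 0.361 and 0.386 before induction and to 0.196 and 0.20 after it. For INK4 mRNA per kinase mRNA the ratio was 0.773 and 0.77 before induction and 0.456 and 0.418 after it. This INK4 sum holds all CDKN2A transcripts, also those for ARF, so it is not a level of p16 and p15 mRNA alone. Transcripts with the INK4a start codon held 29.9% to 34.0% of the estimated reads of CDKN2A. CIP/KIP mRNA per kinase mRNA came to 0.368 and 0.392 before induction and to 0.405 and 0.417 after it, with both TPM sums higher in Doxy(+). In estimated reads the kinase sum overlapped between groups, at 6797 and 7555 in Doxy(-) and 7046 and 7000 in Doxy(+). The order of these shifts rests on the scale, since CDK4, whose TPM depends on short transcripts, dominates the kinase sum in TPM. In estimated counts, which do not correct for length, CIP/KIP per kinase went from 0.423 and 0.407 to 0.633 and 0.646, D-type cyclins from 0.632 and 0.638 to 0.438 and 0.464, and INK4 from 0.386 and 0.378 to 0.304 and 0.277. Directions were the same on both scales, but CIP/KIP moved least in TPM and most in counts. These are ratios of mRNA, not of proteins, and with 2 libraries per group an exact permutation test could not give less than 0.33, so none was run.

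**Figure D4:**
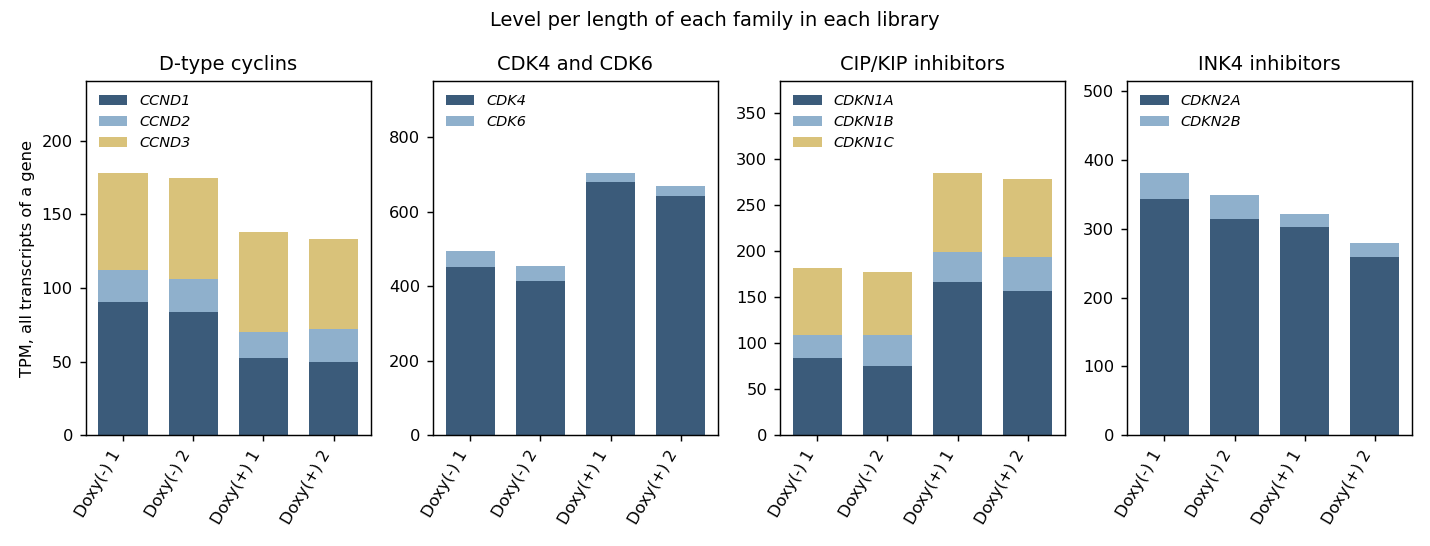
Stacked bars give the TPM (vertical axis, from 0) of each gene in each of the 4 libraries, with 1 panel per family. The CDK4 bar grows from 414 to 452 TPM in Doxy(-) to 641 to 679 TPM in Doxy(+), and the CCND1 part shrinks from 83.6 to 90.8 TPM to 49.6 to 52.2 TPM.

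Genes that act beside the 10 were then counted, from 6 further lists. Of 10 other cyclins, kinases and inhibitors of the G1/S step, 0 rose and 2 fell, against 9.76% higher and 9.53% lower over all genes, so the share called was near the background of 19.3%. The median log2 fold change was 0.0011 against 0.00062 over all genes. CCNA2, the S-phase cyclin, changed by -0.43 (SE 0.0465, edgeR adjusted p 0.00229) and CDC25A, the phosphatase that activates CDK2, by -0.33 (SE 0.0877, edgeR adjusted p 0.0466). The call of CDC25A was lost with DESeq2 (adjusted p 0.0836) and with any library left out (edgeR adjusted p 0.0679 to 0.218). CDKN2D, the INK4 gene for p19, had 0.21 (SE 0.109, edgeR adjusted p 0.24). Of 13 genes of the RB and E2F family, edgeR called 0 in either direction, and DESeq2 also 0. At an unadjusted p under 0.05, 2 were higher and 2 lower, beside 2282 higher and 2246 lower of all 13569 genes. The smallest p-values there belonged to E2F3 (log2 fold change -0.18, edgeR adjusted p 0.0718), E2F6 (0.23, edgeR adjusted p 0.0813) and E2F7 (-0.16, edgeR adjusted p 0.104).

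Of 13 genes for the folding and turnover of these proteins, 1 rose and 3 fell, with a median of 0.02, where 9.76% and 9.53% of all genes did. CKS1B, the cofactor of SKP2 in the destruction of p27, changed by -0.40 (SE 0.0532, edgeR adjusted p 0.00468). CDC37, the chaperone of kinases such as CDK4, changed by -0.22 (SE 0.0425, edgeR adjusted p 0.0163), and its partner HSP90AB1 by -0.17 (SE 0.0253, edgeR adjusted p 0.00654). The 1 that rose, named after its values were seen, was AMBRA1, the adaptor that sends D-type cyclins to degradation (0.31, SE 0.0643, edgeR adjusted p 0.0221). It did not pass with DESeq2 (adjusted p 0.0647), without Doxy(+) 1 (edgeR adjusted p 0.141) or without Doxy(+) 2 (edgeR adjusted p 0.0875). CDC37 and HSP90AB1 also lost their calls without either Doxy(+) library (edgeR adjusted p 0.0551 to 0.117).

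Of 18 E2F target genes of S phase, 1 rose and 4 fell, with a median of -0.06, beside 9.76% higher and 9.53% lower over all genes. RRM2 (-0.42, edgeR adjusted p 0.00132) and TYMS (-0.37, edgeR adjusted p 0.00231), both of nucleotide synthesis, and MYBL2 (-0.26, edgeR adjusted p 0.0028), a factor for cell cycle genes, had the smallest p-values. The replication helicase gene MCM2, named after its values were seen, was the 1 that rose (0.24, edgeR adjusted p 0.00455). The other 13 passed in neither direction.

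CDKN1A was set beside 16 other p53 targets. Of these 4 rose and 0 fell, with a median of 0.15, beside 9.76% higher and 9.53% lower over all genes. At an unadjusted p under 0.05 the counts were also 4 and 0, beside 2282 higher and 2246 lower of all 13569 genes. TP53INP1 (0.47, edgeR adjusted p 0.00484), ZMAT3 (0.34, edgeR adjusted p 0.0113) and GADD45A (0.22, edgeR adjusted p 0.0393) had the smallest p-values. DESeq2 called 2, and leaving out any library left 1 or 2. GADD45A was lost in each of these fits, and ZMAT3 without either Doxy(+) library. The highest log2 fold change of this list, 0.47, lay below the lower bound of the interval of CDKN1A, 0.84.

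CCND1 was set beside 15 other ERK-dependent genes, of which 13 were tested, 1 rose and 7 fell, with a median of -0.26, beside 9.76% higher and 9.53% lower over all genes. MYC, a growth-promoting transcription factor, gave 213 and 237 CPM in controls and 130 and 131 CPM after induction, a change of -0.78 on the log2 scale (SE 0.0573, edgeR adjusted p 0.000615). EPHA2 (-0.39, edgeR adjusted p 0.00172) and PHLDA1 (-0.44, edgeR adjusted p 0.00265) followed. The 1 that rose, named after its values were seen, was ETV5 (0.23, edgeR adjusted p 0.0322), and DESeq2 and each fit without a library called 0 as higher. Without Doxy(+) 1, 3 were lower. In bulk RNA, a change in every cell and a change in the share of cells in a cycle phase cannot be told apart.

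**Figure D5:**
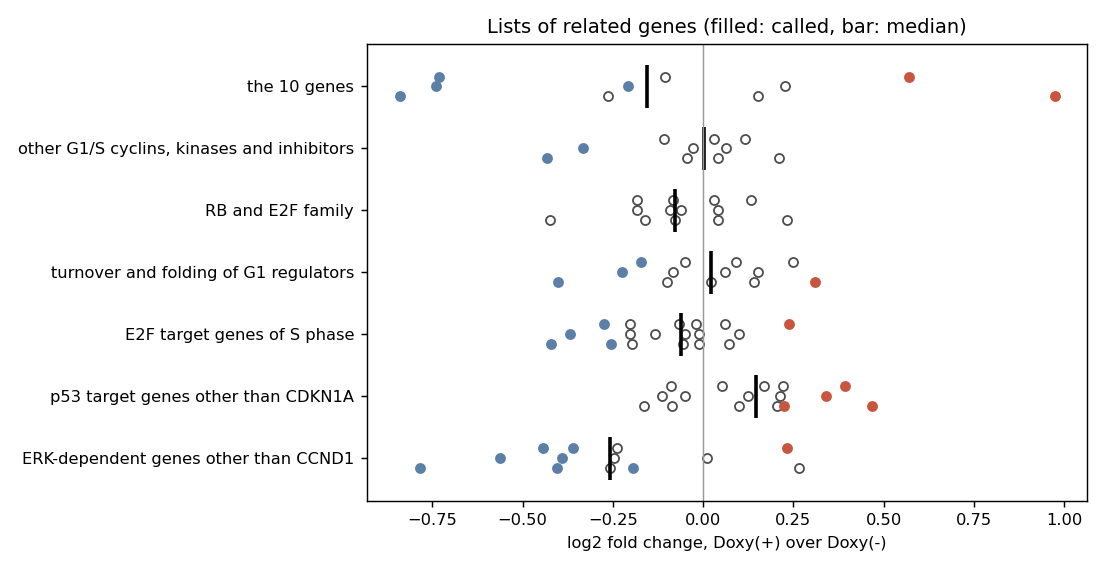
Each point is the log2 fold change (horizontal axis, Doxy(+) over Doxy(-)) of 1 gene of the 10 or of a further list, filled red or blue where it was called higher or lower, with a black bar at the list's median. The 10 genes span -0.84 to 0.97, against -0.42 to 0.24 for the E2F targets and -0.78 to 0.27 for the ERK-dependent genes.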

How the data were processed

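Libraries were made with a stranded mRNA kit, and per the labels' processing notes Trim Galore 0.6.6, cutadapt 2.5, STAR 2.7.9a and hg38 were used. The authors deposited, per library, an expected count of reads (est_counts, not normalized) and a TPM for each of 180253 Ensembl transcripts, in the column layout of kallisto, while the study's methods name RSEM for TPM. Which of them wrote the tables, and whether the strand was used, is not given in the sources used here. Identifiers were matched to GENCODE release 44 (83.6%), and unmatched ones carried 9.66% to 9.89% of a library's reads. Estimated counts were summed per gene and rounded, and R 4.3.3 with edgeR 4.0.16 made the tests (glmQLFit, glmQLFTest, TMM scaling, filterByExpr, group as the only term), with Benjamini-Hochberg adjustment over 13569 genes and standard errors from the F statistic. The script was tested on simulated data. CPM are counts per scaled total of 1000000. A count of 0 allows up to 3 counts, or 0.204 to 0.233 CPM, which covers counting error only. RLE factors, DESeq2 1.42.0, limma 3.58.1 on log2(TPM + 1) or log2(TPM + 0.1), other filters, length-scaled counts, added copies, a replicate block, each library left out and protein-coding transcripts alone were alternatives, the last one added after seeing the data. The genes, lists and tests were chosen with earlier results of these data known. Genes named are the 10, TFE3 and PRCC, the 3 of each other list with the smallest p, and the 3 nearest in profile to the higher and the lower gene with the smallest p. Overlapping genes and markers were named beside these, and AMBRA1, MCM2 and ETV5 after their values were seen. No protein sequences were used here.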

Additional observations from a re-analysis of the deposited data

Results flagged for a closer look

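An identifier that matched no annotated gene had the length and the 4 counts of a CDK4 transcript of the nonsense-mediated decay class. It lies outside the gene sums. Its estimated count was 22.2 in Doxy(+) 2 and 0 in the other libraries, so it stood above the Doxy(-) libraries in 1 of 2 Doxy(+) libraries. The log2 fold change of CDK4 was 0.57 with and without such copies.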

How the results depend on the processing

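Over 15 alternatives for each of the 10 genes, no direction reversed, and 138 of 150 values kept their side of the limit. CCND1 ranged from -0.88 to -0.76, CDK6 from -0.76 to -0.64, CDKN2B from -0.96 to -0.62, CDK4 from 0.50 to 0.64 and CDKN1A from 0.91 to 1.03, and each passed throughout. CCND2 lost its call with limma on log2(TPM + 1) (-0.083) and log2(TPM + 0.1) (-0.087), with length-scaled counts (-0.11) and over protein-coding transcripts (-0.22), and ranged from -0.23 to -0.19 with a library left out. CDKN2A gained one with DESeq2 and without the filter (-0.27 each), and ranged from -0.40 to -0.14 with a library left out. CDKN1C ranged from 0.13 to 0.32 with a library left out. Past both limits 1 gene, CDKN1A, was counted with either limma setting, and 0 to 1 with a library left out. The causes were not tested.

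Over all genes, 598 were higher and 306 lower with limma on log2(TPM + 1), 590 and 299 on log2(TPM + 0.1), 675 and 577 with length-scaled counts, 816 and 780 over protein-coding transcripts, 621 and 554 at an adjusted p under 0.01, and 647 to 1233 and 565 to 1308 with a library left out. DESeq2 called 1 lower gene of the other G1/S list, 0 higher of the turnover list, 2 higher p53 targets and 0 higher ERK-dependent genes. With a library left out, the other G1/S list had 1 lower, the RB and E2F family 0 to 1 higher and 0 to 1 lower, the turnover list 0 to 2 higher and 1 to 3 lower, p53 targets 1 to 2 higher, and ERK-dependent genes 0 higher and 3 to 6 lower.

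The numbers 1 and 2 are not said to pair libraries, and the difference between libraries 1 and 2 correlated at -0.0147 between the groups over 13569 genes. With the replicate block, CDKN2A passed (-0.27, edgeR adjusted p 0.0173), so 5 genes were lower, and the other 9 kept their calls.

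Shares of a family moved with the unit. From estimated counts, which unlike TPM do not correct for length, CDK4 held 48.0% of the kinases in Doxy(-) and 69.4% in Doxy(+). CDKN1A held 53.1% and 66.0% of the CIP/KIP genes in these counts. Over protein-coding transcripts CCND1 held 38.3% and 28.2% of the D-type cyclins, and CDK4 91.7% and 96.7% of the kinases. The ratios to the kinases were, in estimated counts, 0.635 and 0.451 for D-type cyclins, 0.415 and 0.639 for CIP/KIP and 0.382 and 0.29 for INK4, and over protein-coding transcripts 0.294 and 0.163, 0.385 and 0.416, and 0.727 and 0.42, in Doxy(-) and Doxy(+).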
